A study of Mus musculus with 16 samples.

Results

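The resident macrophages of the liver, the Kupffer cells, were followed in whole liver through 10 genes that mark them: Clec4f, Timd4, Vsig4, Cd5l, Marco, Adgre1, C1qa, C1qb, C1qc and Cd163. Each gene was represented by the array transcript cluster that the platform annotation assigns to it alone, and each had 1 such cluster. All 10 were among the 14275 genes tested of 18820 measured, and all lay above the intensity floor of the filter (log2 4.32) on 16 of 16 arrays. That floor is not a limit of detection. Marco, with a mean of 5.70, lay near the array medians over all clusters (5.53 to 5.59).

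The livers came from 16 male C57BL/6J mice, 1 array per mouse, killed at 12 months of age after diets begun at 9 weeks. Control mice ate AIN-93W (C), CR mice were held to 30% calorie restriction, and MF mice ate food of medium fat content, from which 25% of the energy came. INT mice switched each week between MF food and 40% restriction and were sacrificed while on MF. All mice were fasted for 4 h, given carboxymethyl cellulose alone (mock) or with the PPARα agonist WY14,643 (Wy) at 160 mg/kg by gavage, and fasted for another 6 h. Each diet by treatment group held 2 mice, 1 labelled high and 1 labelled low body weight, and mock and Wy mice of a diet were matched by weight into 8 pairs over the 4 diets. Arrays are named by weight class, diet and treatment, so that high C mock is the high body weight control mouse that received the vehicle. The labels give the class and no weights. Every diet has its own high and low mice, and heavy and light below stand for these labels. By the study's account INT mice weighed less than C and MF mice, and CR mice less than INT mice. A heavy CR or INT mouse is thus heavy for its diet only. Whole liver holds all its cell types, so fewer Kupffer cells and less RNA per Kupffer cell cannot be told apart.

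Kupffer cells line the sinusoids, where they clear particles, dying cells, haemoglobin and opsonised microbes from portal blood. Most of them descend from embryonic precursors and renew themselves locally, and monocytes from blood can take their place after loss. C1qa, C1qb and C1qc encode the chains of C1q, the recognition molecule of the classical complement pathway, which tissue macrophages make. Vsig4 is a receptor for complement fragments, Cd5l a secreted protein of the scavenger receptor family and Adgre1 an adhesion receptor of most mouse tissue macrophages. Clec4f is a lectin that in mice is nearly restricted to Kupffer cells. Timd4 binds phosphatidylserine on dying cells and marks resident cells of long standing, Marco is a class A scavenger receptor for bacteria and particles, and Cd163 takes up haptoglobin-bound haemoglobin.

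The stretch just upstream of the RefSeq gene start is shown for C1qb and Timd4, the 2 genes that differed with body weight, for Vsig4, which holds 2 copies of the motif searched, and for Cd163, which differed with Wy. Each is the 250 bases before the start, 5′ to 3′, from RefSeq on GRCm38.p6, and capitals mark GAGGAA or its reverse complement, the core sequence that ETS factors such as SPI1, the master regulator of macrophages, bind. They lie at chr4:136886201-136886450 on the minus strand (C1qb), chrX:96293439-96293688 on the minus strand (Vsig4), chr11:46810549-46810798 on the plus strand (Timd4) and chr6:124304401-124304650 on the plus strand (Cd163).
C1qb: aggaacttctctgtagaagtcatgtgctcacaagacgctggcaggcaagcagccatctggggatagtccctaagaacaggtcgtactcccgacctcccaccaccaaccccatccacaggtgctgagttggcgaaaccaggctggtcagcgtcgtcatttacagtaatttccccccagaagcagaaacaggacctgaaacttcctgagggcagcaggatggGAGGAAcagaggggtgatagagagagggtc
Vsig4: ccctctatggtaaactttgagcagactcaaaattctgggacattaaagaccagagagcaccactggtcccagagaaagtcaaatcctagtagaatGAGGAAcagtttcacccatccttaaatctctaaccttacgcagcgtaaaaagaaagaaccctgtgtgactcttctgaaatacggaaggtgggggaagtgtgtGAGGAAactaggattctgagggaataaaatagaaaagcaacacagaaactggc
Timd4: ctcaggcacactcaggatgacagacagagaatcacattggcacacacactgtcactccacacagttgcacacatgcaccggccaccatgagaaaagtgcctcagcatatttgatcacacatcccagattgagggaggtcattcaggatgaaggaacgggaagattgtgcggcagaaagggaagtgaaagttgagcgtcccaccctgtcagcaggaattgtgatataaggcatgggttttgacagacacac
Cd163: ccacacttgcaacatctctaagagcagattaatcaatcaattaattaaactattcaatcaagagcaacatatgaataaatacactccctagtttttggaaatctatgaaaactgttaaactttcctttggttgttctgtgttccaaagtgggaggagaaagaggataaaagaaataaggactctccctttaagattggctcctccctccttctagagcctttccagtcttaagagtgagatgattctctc

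Such sequence was held for 8 of the 10 genes; C1qa and Adgre1 are named only. GAGGAA stood, on either strand, in 5 of these 8 stretches (62.5%; Marco, Cd5l, C1qb, C1qc and Vsig4), against 23.3% of 32851 promoters of the same length. It lay 30 bases before the start of C1qb and 155 and 53 bases before that of Vsig4. TGCTGA, part of the element that MAF factors bind, stood in 4 of 8 (50%; Cd5l, C1qb, Clec4f and Timd4), against 16.1% of all promoters, and no copy of it shared a base with GAGGAA. The E-box CACGTG, the interferon regulatory factor element and the direct repeats of nuclear receptors, DR1 and DR4, stood in 0 of the 8 (6.02%, 2.98%, 0.0335% and 0.0152% of all promoters). These are matches of letters. The C1q genes lie next to each other on chromosome 4, in the order C1qb, C1qc, C1qa.

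The 10 genes did not vary equally. Over the 16 livers Clec4f spanned 0.80 log2, from 9.23 to 10.03, the smallest range of the 10, and Marco 2.69 log2, from 4.79 to 7.47, the widest. The SD of Clec4f ranked at the 69.9th percentile of the tested genes and that of Marco at the 97.9th. Some livers stood at the end of several ranges. The high CR mock liver was the lowest of the 16 for 6 genes (Vsig4, Cd5l, Adgre1, C1qa, C1qb and C1qc), and the high C mock liver was the lowest for the 3 genes Timd4, Marco and Cd163. The high C Wy liver was the highest for 4 genes (Clec4f, Cd5l, Adgre1 and C1qc), high MF mock for C1qa and C1qb, and low INT Wy for Timd4 and Marco.

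**Figure D1:**
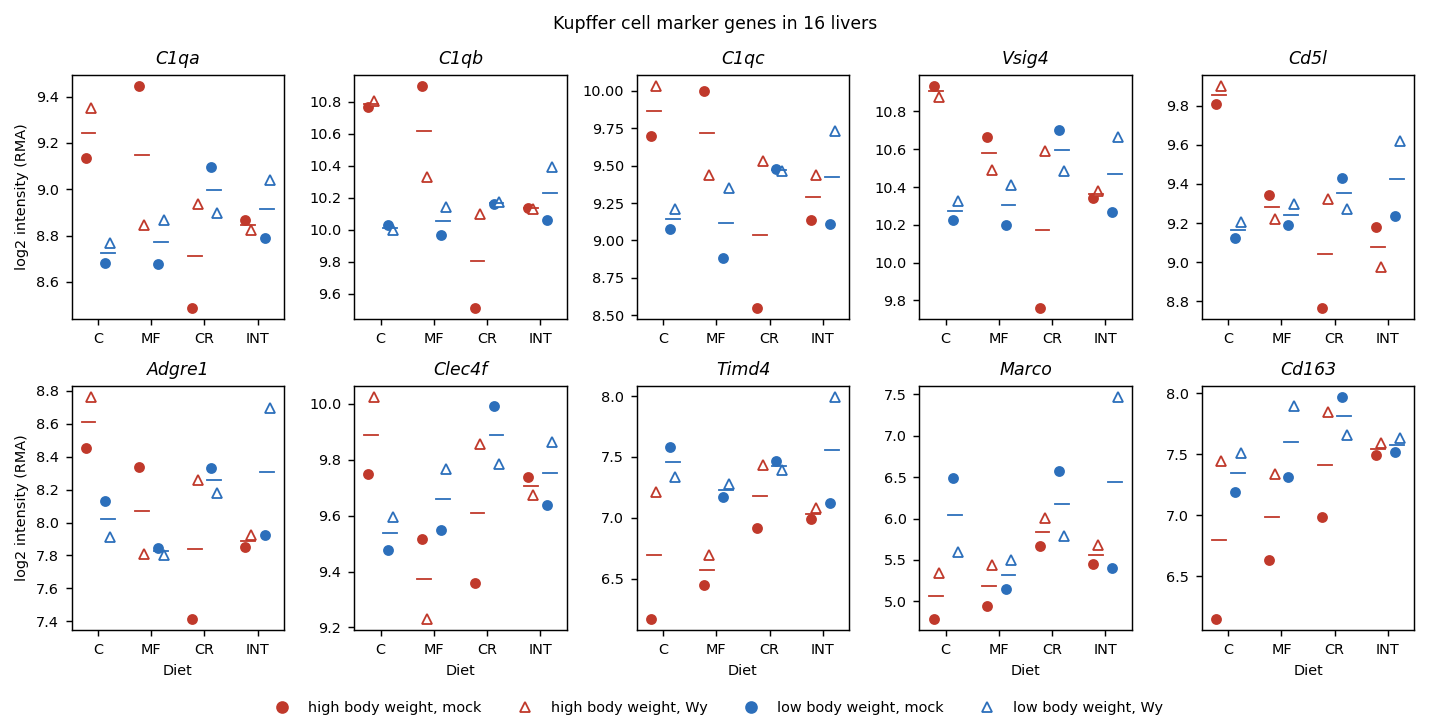
log2 intensity of the 10 genes (1 panel each, axes not from 0) in each of the 16 livers, by diet, with colour for body weight class, filled circles for mock, open triangles for Wy, and a bar at the mean of the 2 livers. In C and MF the high body weight livers lie above the low ones for C1qb, C1qc and Vsig4 and mostly below them for Timd4 and Cd163, and the high CR mock liver is the lowest point of 6 panels.

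The first comparison asks whether the markers differ between heavy and light mice of the diets eaten freely, C and MF. The markers did not move as a block: C1qb was higher and Timd4 lower in heavy mice, and the estimate for Clec4f was near 0. C1qb rose 1.59-fold (log2 0.67 ± 0.14, SE, n = 4 against 4, limma adjusted p = 0.0198). Its level in the high C livers was 10.77 with mock and 10.81 with Wy, and in the high MF livers 10.90 and 10.33. In the low livers it was 10.03 and 10.00 in C and 9.97 and 10.14 in MF, so that the lowest heavy liver stood above the highest light liver. Timd4 fell by 0.71 ± 0.19 log2, which is 1.64-fold (n = 4 against 4, limma adjusted p = 0.0454). Timd4 read 6.17 and 7.21 in the high C livers and 6.45 and 6.69 in the high MF livers, mock first, against 7.58 and 7.34 in low C and 7.17 and 7.28 in low MF. It was lower in the heavy mouse of 4 of 4 matched comparisons, although high C Wy overlapped with low MF mock.

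These 2 of 10 calls compare with 7.39% called among all genes tested in this comparison. At an unadjusted p under 0.05 the markers counted 7 of 10 against 23.3%. The groups did not overlap for 3 of 10 (C1qb, C1qc and Vsig4), against 10.6% of all genes. The C1qb call was lost without any 1 of 6 arrays, the C livers of both classes and the mock MF livers of both classes (adjusted p from 0.0564 to 0.0909), and the Timd4 call without any 1 of 11 arrays (0.0524 to 0.175, the highest without low MF mock). With each of the 16 arrays left out in turn the C1qb difference ran from 0.48 to 0.85 and that of Timd4 from -0.92 to -0.50.

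The other C1q chains and the complement receptor ran in the direction of C1qb without passing the threshold. C1qc read 9.70 and 10.04 in high C, 10.00 and 9.44 in high MF, 9.07 and 9.21 in low C and 8.88 and 9.35 in low MF, a difference of 0.66 ± 0.19 (adjusted p = 0.0574). C1qa differed by 0.45 ± 0.14 (adjusted p = 0.0766), and its high MF Wy liver (8.85) lay within the light livers (8.68 to 8.87). Vsig4 read 10.94 and 10.88 in high C and 10.66 and 10.49 in high MF, all above the 10.20 to 10.41 of the light livers, a difference of 0.45 ± 0.15 (adjusted p = 0.0846). For these genes the heavy MF liver that received Wy was the closest of the heavy livers to the light ones. Without the high MF mock array C1qa, C1qc and Adgre1 shrank to 0.26, 0.42 and 0.23. Without high MF Wy, C1qa and C1qc passed beside C1qb (adjusted p = 0.0106, 0.00975 and 0.00371), and without the high CR mock array Vsig4, Cd5l and C1qc passed beside C1qb (0.0241, 0.0435, 0.0342 and 0.0123).

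Cd5l differed by 0.37 ± 0.12 (adjusted p = 0.0836), with a larger estimate in C than in MF. The C difference was 0.69 ± 0.17 (limma adjusted p = 0.105), with 9.81 and 9.90 in heavy against 9.12 and 9.20 in light livers. In MF it was 0.04 ± 0.17 (limma adjusted p = 0.931), with 9.34 and 9.22 against 9.19 and 9.30. Whether Cd5l differed between the diets in this was not tested. Adgre1 differed by 0.42 ± 0.20 (adjusted p = 0.235). Clec4f, the marker nearly restricted to these cells, gave 0.03 ± 0.12 with a 95% interval from -0.22 to 0.29 (adjusted p = 0.904). Its signs were opposed in the 2 diets, 0.35 ± 0.16 in C and -0.29 ± 0.16 in MF, neither of which passed (adjusted p = 0.429 and 0.375), and the difference between the diets was not tested.

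The scavenger receptors ran with Timd4. Cd163 read 6.15 and 7.44 in high C and 6.63 and 7.34 in high MF, mock first, against 7.19 and 7.51 in low C and 7.31 and 7.89 in low MF. The difference was -0.59 ± 0.21 (adjusted p = 0.113), with the heavy liver lower in 4 of 4 matched comparisons. Marco differed by -0.56 ± 0.37 (adjusted p = 0.405) and was also lower in 4 of 4, most in the C mock livers, where it read 4.79 in the heavy and 6.49 in the light mouse. For Timd4, Cd163 and Marco the C mock pair gave the widest of the 4 gaps (-1.41, -1.04 and -1.70). Without the high C mock array the Timd4 difference was -0.50 (adjusted p = 0.168) and that of Cd163 -0.35, and without low C mock that of Marco was -0.22.

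**Figure D2:**
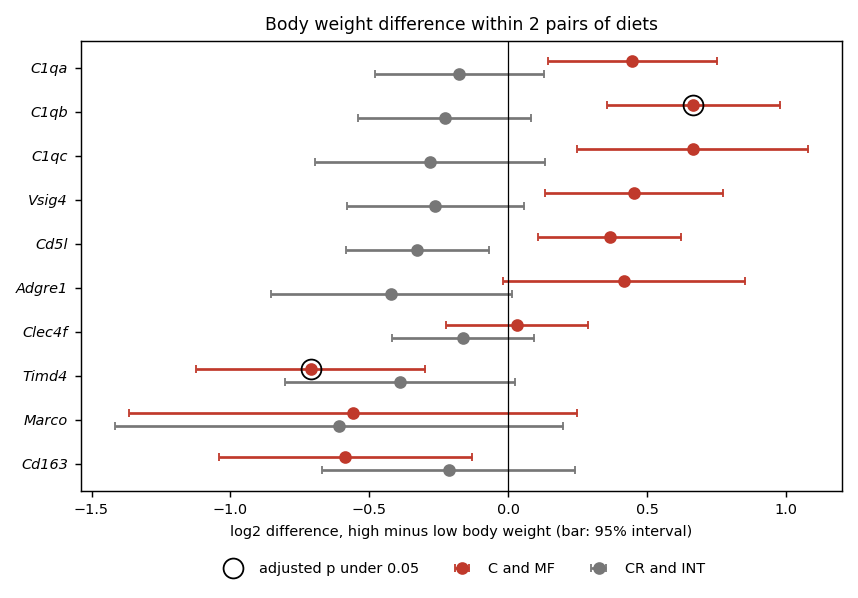
Fitted log2 difference between high and low body weight livers for the 10 genes (x axis, with 95% intervals) within C and MF (red) and within CR and INT (grey), 4 against 4 livers each, with rings at an adjusted p under 0.05. In C and MF the genes spread from -0.71 for Timd4 to 0.67 for C1qb, and in CR and INT all 10 estimates lie between -0.61 and -0.16 with none called.

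Genes that all macrophages use were higher in the same heavy C and MF livers. Of 13 tested pan-macrophage genes 10 rose and 0 fell, among them the endotoxin co-receptor Cd14 (1.13 ± 0.15, adjusted p = 0.00271), the protease Ctss (0.83 ± 0.12), the signalling chain Fcer1g (0.75 ± 0.13) and the transcription factor gene Spi1 (0.64 ± 0.14). Of 8 tested genes of monocyte-derived and lipid-associated macrophages 5 rose, Gpnmb by 2.22 ± 0.38, Clec7a by 1.36 ± 0.20, Itgax by 1.23 ± 0.19, Ccr2 by 1.07 ± 0.11 and Trem2 by 0.88 ± 0.14. The summed level of that list ran from 9.32 to 9.99 log2 in the heavy livers and from 8.61 to 8.75 in the light ones. C1q chains, Adgre1 and Cd163 are also made by macrophages that come from monocytes, and the part of such cells in the marker values was not tested. The median difference was 0.69 for the pan-macrophage list and 0.98 for the monocyte-derived list, against 0.39 for the 10 markers and -0.00386 for all genes tested.

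Other genes known from Kupffer cells were split like the 10. Of 13 tested, 3 rose, the transcriptional regulator Id3 (0.81 ± 0.15), the metal transporter Slc11a1 (0.67 ± 0.16) and the interleukin-18 antagonist Il18bp (0.41 ± 0.10), and 2 fell, the complement component C6 (-0.58 ± 0.11) and the lectin Fcna (-0.44 ± 0.09). Of 11 tested genes for uptake of dying cells and modified lipids 4 rose: Cd36 (1.40 ± 0.18), Gas6 (0.97 ± 0.18), Mfge8 (0.71 ± 0.09) and Axl (0.61 ± 0.10). Of the proteases and regulators that work with C1q 0 of 5 tested were called, with differences from -0.20 to 0.02. The same held for 10 of 10 niche signals and 10 of 10 genes of haemoglobin and iron recycling, where the haem oxygenase Hmox1 came closest (0.51 ± 0.17, adjusted p = 0.0874).

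Among markers of other cells some were called too, in a comparison that called 7.39% of all genes. Of 8 endothelial genes Lyve1 (0.97 ± 0.25) and Pecam1 (0.28 ± 0.07) rose, of 2 tested neutrophil genes Csf3r rose (0.37 ± 0.10), of 2 erythroid genes Alas2 fell (-0.45 ± 0.11) and of 7 hepatocyte genes Cps1 fell (-0.28 ± 0.06). The summed hepatocyte level ran from 15.61 to 15.74 in heavy and from 15.71 to 15.79 in light livers. Of 6 tested T and NK cell genes 0 were called, but their median difference (0.39) was that of the 10 markers, with estimates up to 0.61 for Nkg7 and 0.46 for Cd3e. Of the stellate, B and plasma cell, bile duct and adipocyte lists 0 genes were called. The part of these cells in the marker values was not tested.

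**Figure D3:**
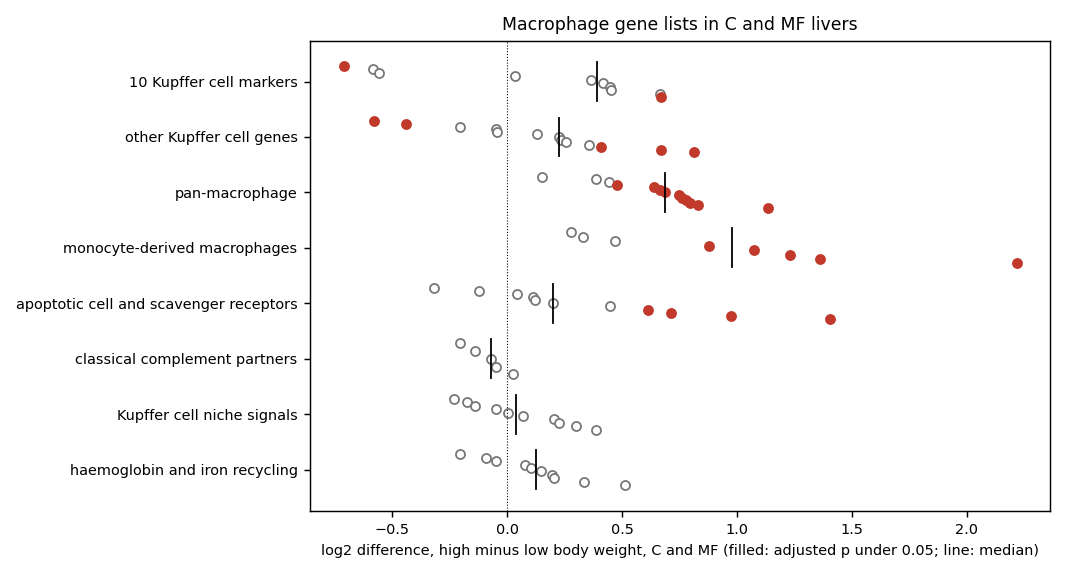
log2 difference between heavy and light C and MF livers (x axis) for each tested gene of 8 lists (1 point per gene, filled at an adjusted p under 0.05, vertical line at the list median, dotted line at 0). The pan-macrophage and monocyte-derived lists lie to the right of 0, and the 10 Kupffer cell markers fall on both sides of it.

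In CR and INT, where by the study's account the mice varied little in weight, the picture was different. Both high INT livers carry another plate code than the low INT livers, so class and plate code cannot be told apart in INT. All 10 markers had lower estimates in the high class, from -0.61 for Marco to -0.16 for Clec4f, and 0 of 10 were called, against 0% of all genes (679 of 14275 genes had an unadjusted p under 0.05, and 1 of the 10 markers, Cd5l). Of all genes tested 45.3% had an estimate above 0, and 56.9% once arrays had been centred on their medians, when 0 of the 10 markers did. The high CR mock liver carried much of these lower marker estimates: Vsig4 read 9.76 there and 10.70 in low CR mock, and C1qb 9.51 and 10.16. In the INT mock livers the same genes read 10.34 and 10.27, and 10.14 and 10.06. Without the high CR mock array the differences shrank to -0.07 for Vsig4 and -0.08 for C1qb. For Marco, Timd4 and Adgre1 the INT Wy pair of livers gave gaps of -1.79, -0.91 and -0.77, with the light liver the higher. Without the low INT Wy array the differences shrank to -0.10 for Marco, from -0.39 to -0.23 for Timd4 and from -0.42 to -0.24 for Adgre1, and without high CR mock that of Adgre1 was -0.22.

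The difference between these body weight effects, whose INT part has the same limit of plate code, was tested directly. It was 0.89 ± 0.20 log2 for C1qb (adjusted p = 0.0664), 0.69 ± 0.17 for Cd5l (adjusted p = 0.0804), 0.95 ± 0.27 for C1qc (adjusted p = 0.129) and 0.71 ± 0.21 for Vsig4 (adjusted p = 0.135). C1qa gave 0.62 ± 0.20 and Adgre1 0.84 ± 0.28, and the other 4 markers lay between -0.37 for Cd163 and 0.19 for Clec4f. None of the 10 markers passed, against 0.855% of all genes, and 6 of 10 had an unadjusted p under 0.05, against 14.1%. Leaving out high CR Wy gave 4 calls (Vsig4, Cd5l, C1qb and C1qc, adjusted p 0.0223, 0.0275, 0.0277 and 0.0475), leaving out high MF Wy gave 3 (C1qa, C1qb and C1qc, 0.0261, 0.0128 and 0.0236), and leaving out high CR mock gave 0, with 0.75 for C1qb. Of the pan-macrophage list 4 of 13 passed: Cd14 (1.45 ± 0.21), Ctss (0.95 ± 0.17), Laptm5 (1.01 ± 0.20) and Fcgr1 (1.02 ± 0.20). Of the monocyte-derived list Ccr2 (1.04 ± 0.16) and Itgax (1.39 ± 0.27) passed.

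Timd4, Marco and Cd163 did not follow this division. Over all diets these genes were lower in the mice labelled heavy for their diet, by -0.55 ± 0.13, -0.58 ± 0.25 and -0.40 ± 0.15. For none did the limma adjusted p reach the threshold (0.151, 0.325 and 0.259), nor did any gene of the 14275 (2000 had an unadjusted p under 0.05). Timd4 was lower in the heavy liver of 7 of 8 matched comparisons, the exception being CR Wy (7.43 against 7.39). The median Timd4 level was 6.95 in heavy livers (lowest 6.17, highest 7.43) and 7.36 in light ones (7.12 to 8.00). The other 7 markers lay between -0.07 and 0.22 over all diets.

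In how the markers varied together, Timd4, Marco and Cd163 stood apart from the C1q chains, Vsig4, Cd5l and Adgre1. This division was described and not tested. Over the 16 livers the C1q chains, Vsig4, Cd5l and Adgre1 correlated with each other at Pearson r from 0.77 to 0.94. Timd4 correlated with Marco at 0.84 and with Cd163 at 0.77. Across the division the 18 values ran from -0.40 (C1qb with Cd163) to 0.29 (Marco with Adgre1), 16 of them below 0. By rank they were smaller and fell to both sides of 0 (Spearman rho from -0.24 to 0.26, 8 of 18 below 0). C1qb with Cd163 gave a rho of -0.02. By Pearson r Clec4f ran from 0.33 (C1qb) to 0.68 (Adgre1) with the C1q chains, Vsig4, Cd5l and Adgre1. With Timd4, Marco and Cd163 it ran from 0.29 (Marco) to 0.41 (Cd163). The 4 heavy C and MF livers set this division apart. In the other 12 livers all 45 gene pairs correlated above 0 (median 0.81 against 0.51 over 16), C1qb with Timd4 at 0.65 and Clec4f with C1qa at 0.98. Leaving out high CR mock as well gave a median of 0.72 over 11 livers, with a lowest value of 0.13. These 12 livers were chosen after the values were seen, and all points share their arrays and their cell makeup, so the values are a description.

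**Figure D4:**
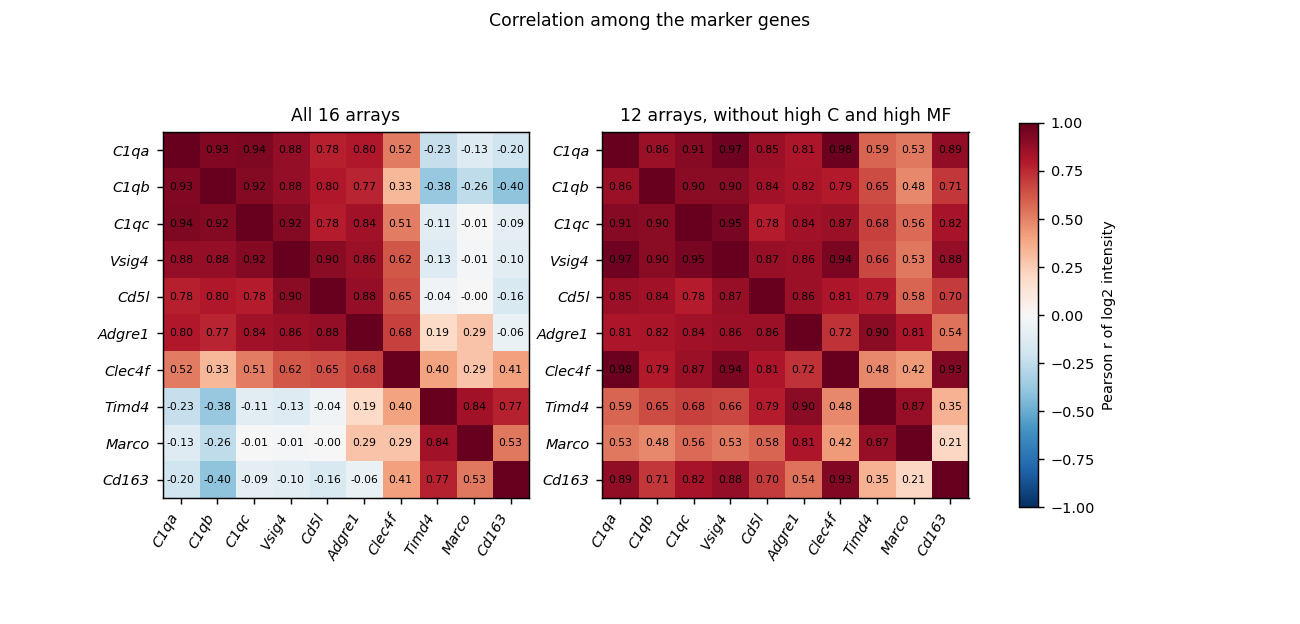
Pearson r of log2 intensity between each pair of the 10 genes over all 16 livers (left) and over the 12 livers without high C and high MF (right), with the value in each square and blue for values below 0. On the left Timd4, Marco and Cd163 correlate with the C1q chains, Vsig4, Cd5l and Adgre1 at values from -0.40 to 0.29, and on the right all 45 pairs are above 0.

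Genes outside the 10 with the most similar course were named by a rule over 13674 candidates. The mean of the 10 markers was tracked most closely by Cd300e (r = 0.91), Cfp (0.90), Spic (0.89), Siglece (0.86), Trpm2 (0.84) and Epb41l3 (0.84) over 16 livers. Cfp encodes properdin, the positive regulator of the alternative complement pathway, and Spic a transcription factor of iron-recycling macrophages. On deviations from the diet by treatment means, Cd300e (0.95), Cfp (0.94) and Spic (0.92) were again among the 6 closest. Clec4f was tracked best by Mreg (0.86), Siglec1 (0.85), the sialoadhesin of resident macrophages, and Lilra5 (0.84). Added after the values were seen, the closest to C1qb were Ly86 (0.98), Cybb (0.97), Fcgr4 (0.96), Inpp5d (0.96), Cd68 (0.96) and Cd53 (0.96), all genes of white blood cells. The closest to Timd4 were Clasrp (0.84), Nudc (0.84) and Atp13a1 (0.83), which are not genes of macrophages in particular.

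The next comparisons ask whether diet set the marker levels. None of the 10 was called in any of the 6 contrasts between diets, against 10.5% of all genes for CR minus C, 0% for MF minus C, 0.00701% for INT minus C, 9.85% for INT minus CR, 0% for INT minus MF and 12.7% for CR minus MF. At an unadjusted p under 0.05 there was 1 marker of 10 each in CR minus C (25.3% of all genes), INT minus C (9.84%), INT minus MF (11.4%) and CR minus MF (27.5%). The 10 estimates ran from -0.41 (C1qb) to 0.54 (Cd163) in CR minus C, from -0.37 (Adgre1) to 0.22 (Cd163) in MF minus C, from -0.26 (Cd5l) to 0.49 (Cd163) in INT minus C and from -0.06 (Cd163) to 0.19 (C1qb) in INT minus CR. Against MF they ran from -0.15 to 0.74 in INT and from -0.35 to 0.75 in CR, with C1qb the lowest and Marco the highest in both. The largest difference from C was that of Cd163, 0.54 ± 0.21 in CR (adjusted p = 0.115) and 0.49 ± 0.21 in INT (adjusted p = 0.475), both against the same 4 C livers. Without the high C mock array, the lowest of the 16 for Cd163, they were 0.34 and 0.29. Cd163 read 6.15, 7.44, 7.19 and 7.51 in C, 6.99, 7.84, 7.97 and 7.66 in CR, 6.63, 7.34, 7.31 and 7.89 in MF, and 7.49, 7.60, 7.52 and 7.63 in INT (high mock, high Wy, low mock, low Wy). The groups overlapped, the INT livers were the tightest (SD 0.06, n = 4) and C the widest (SD 0.63).

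Clec4f averaged 9.71 ± 0.24 in C, 9.75 ± 0.27 in CR, 9.52 ± 0.22 in MF and 9.73 ± 0.10 in INT (SD, n = 4 each), and in the order CR, INT, C, MF no neighbours differed beyond their spread. Timd4 averaged 7.07 ± 0.62 in C, 7.30 ± 0.26 in CR, 6.90 ± 0.39 in MF and 7.30 ± 0.47 in INT. Marco averaged 5.55 ± 0.71 in C, 6.01 ± 0.40 in CR, 5.26 ± 0.26 in MF and 6.00 ± 0.99 in INT. For Marco, CR lay above MF on all livers, the lowest CR liver at 5.66 and the highest MF liver at 5.50, with a difference of 0.75 ± 0.36 (adjusted p = 0.193). It was the 1 of 10 markers whose groups did not overlap in CR minus MF, against 10.9% of all genes. INT minus MF was 0.74 for Marco and 0.40 for Timd4, neither called, and 0.33 and 0.29 without the low INT Wy array.

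The diet contrast was also taken within each weight class. The class is relative to the diet, so these contrasts do not match mice by weight, and diet and weight cannot be told apart in them. In heavy mice, a comparison added after the values were seen, C1qb was 0.98 ± 0.20 lower in CR than in C and Cd5l 0.81 ± 0.17 lower (adjusted p = 0.0165 for both, against 7.54% of genes called), and C1qb was 0.81 ± 0.20 lower in CR than in MF (adjusted p = 0.0226, against 13.9%). In light mice CR minus C was 0.15 ± 0.20 for C1qb and 0.19 ± 0.17 for Cd5l, with 0 of 10 markers called against 2.18%. The difference between the classes was -1.13 ± 0.28 for C1qb, -0.999 ± 0.234 for Cd5l and -1.05 ± 0.29 for Vsig4 (unadjusted p 0.00204, 0.0013 and 0.004), and none passed the adjustment over all genes (0.199, 0.186 and 0.245, against 0.014%). INT minus C in heavy mice was -0.78 ± 0.17 for Cd5l and -0.65 ± 0.20 for C1qb, against the same high C livers. Neither was called (limma adjusted p = 0.0746 and 0.163, against 0.14% of genes called). The heavy contrasts rest on 2 livers a group, and high CR mock is 1 of the 2 in CR. Between heavy mock livers C1qb was -1.25 in CR minus C and -1.39 in CR minus MF, and between heavy Wy livers -0.71 and -0.23, while Cd5l was -1.04 and -0.58 in CR minus C. Without high CR mock none of these calls held: C1qb was -0.68 (adjusted p = 0.115) and Cd5l -0.55 (0.111) in CR minus C, and C1qb -0.51 (0.17) in CR minus MF. Both CR minus C calls were also lost without high C mock (0.106 and 0.102) or high C Wy (0.0847 and 0.0887), and the CR minus MF call without high MF mock (-0.44, 0.209). The same 4 heavy C and CR livers enter the body weight contrasts above. With both classes together, CR minus C was -0.41 ± 0.22 for C1qb, and -0.19 without high CR mock, while Vsig4, C1qa and C1qc changed sign without it (0.03, 0.04 and 0.01).

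Some partners of the markers did differ with restriction, in a contrast (CR minus C) that called 10.5% of all genes. In CR minus C the growth factor Csf1, on which macrophages depend, fell by 0.57 ± 0.10 (adjusted p = 0.00285), and 2 other niche genes rose, the Notch ligand Dll4 (0.43 ± 0.10) and the signal transducer Smad4 (0.25 ± 0.07), so 3 of 10 niche genes were called. Of 5 complement partners the proteases C2 (-0.42 ± 0.08) and C1s1 (-0.31 ± 0.06) fell, and of 13 other Kupffer cell genes C6 fell (-1.55 ± 0.12), genes that hepatocytes also express. Of the pan-macrophage genes 0 of 13 were called, with all 13 estimates below 0 (-0.58 to -0.01). Of the monocyte-derived list 1 of 8 was called, the fractalkine receptor Cx3cr1 (-0.57 ± 0.17). Of 11 genes for uptake of dying cells and modified lipids Scarf1 rose (0.47 ± 0.12). Of other cells, 1 gene was called in each of 6 lists: Alas2 of 2 erythroid (-1.34 ± 0.14), Cd79b of 4 B and plasma cell (-0.77 ± 0.21), Pdgfrb of 8 stellate (-0.41 ± 0.12) and Car3 of 3 adipocyte genes (-0.42 ± 0.11) fell, and Tat of 7 hepatocyte (0.65 ± 0.15) and Dnase1l3 of 8 endothelial genes (0.32 ± 0.08) rose. Car3 averaged 12.92 log2 over the 16 livers, against 5.07 for Plin1 and 4.58 for Retn of the same list, so its fall cannot be read as one of adipocytes. The part of shifts in other cells in the marker values was not tested.

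The last comparison asks what 6 h of Wy did. Cd163 was the marker that rose, 1.37-fold (log2 0.46 ± 0.15, n = 8 pairs, limma adjusted p = 0.0375), which is 1 of 10 against 28.3% of all genes called. With mock its lowest, median and highest levels were 6.15, 7.25 and 7.97, and with Wy 7.34, 7.61 and 7.89. The ranges overlapped, and the SD over 8 livers was 0.57 with mock and 0.19 with Wy. The 3 pairs with the lowest mock level had the largest differences, 1.29 in high C (from 6.15), 0.86 in high CR (from 6.99) and 0.71 in high MF (from 6.63). The low CR pair, which had the highest mock level (7.97), differed by -0.32. The mock level is itself part of each difference, so low mock values raise it by construction, and this order is not a separate result. Cd163 was higher in 7 of 8 pairs. The call was lost without the high C pair (0.34, adjusted p = 0.0793), the high CR pair (0.40, 0.0851), the high MF pair (0.42, 0.0824), the low MF pair (0.44, 0.0809) or the low C pair (0.48, 0.0602), and it held without the pairing (adjusted p = 0.0317).

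The other 9 markers also had estimates above 0, from 0.04 for C1qa to 0.32 for Timd4, and none was called. Of all genes tested 48.6% had an estimate above 0, and 57.4% once arrays had been centred on their medians, when the markers still counted 10 of 10. Timd4 changed by 0.32 ± 0.13 (adjusted p = 0.0975), most in high C, from 6.17 to 7.21, and in low INT, from 7.12 to 8.00. It passed when the low C pair was left out (0.40, adjusted p = 0.0491). C1qc changed by 0.28 ± 0.13 (adjusted p = 0.141), and passed without the high MF pair (0.41, adjusted p = 0.0159), in which it went from 10.00 to 9.44. Vsig4 changed by 0.14 ± 0.10, Adgre1 by 0.13 ± 0.14 and Cd5l by 0.09 ± 0.08. For C1qa, C1qb and Clec4f the intervals ran from -0.17 to 0.26, -0.15 to 0.29 and -0.08 to 0.28. Marco moved by between -0.89 in the low C pair and 2.07 in the low INT pair, with a fitted 0.30 ± 0.26.

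**Figure D5:**
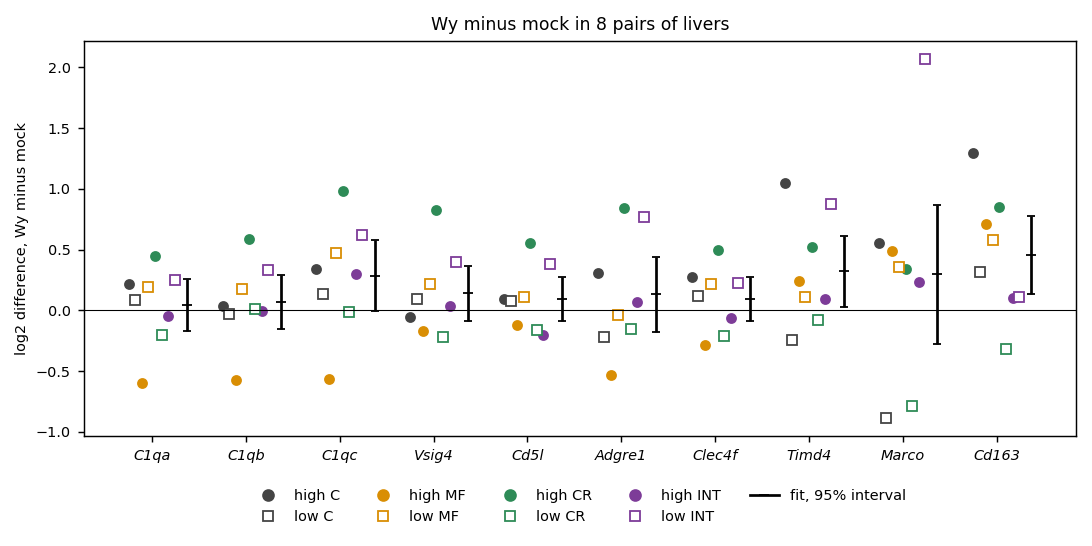
log2 difference between the Wy and the mock liver of each of the 8 pairs (y axis) for the 10 genes, with colour for diet, filled circles for high and open squares for low body weight, and the fitted mean with its 95% interval in black. Cd163 is above 0 in 7 of 8 pairs, the high MF pair lies lowest for the 3 C1q chains and Adgre1, and Marco spreads from -0.89 to 2.07.

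The response did not differ detectably between weight classes or diets. The Cd163 change was larger in heavy than in light pairs by 0.57 ± 0.25 (95% interval 0.01 to 1.12, unadjusted p = 0.047, adjusted p = 0.999 by limma), the other 9 markers lay between -0.11 and 0.31, and 0 of 10 markers and 0% of all genes were called (673 genes, and 1 marker, at an unadjusted p under 0.05). Across diets the smallest F test p was that of Marco (0.203, adjusted 0.997). Partners of C1q fell with Wy: 4 of 5 tested, C2 by 0.47 ± 0.07, C1s1 by 0.29 ± 0.04, C1ra by 0.29 ± 0.06 and Cfi by 0.18 ± 0.06. Cd14 was the 1 of 13 pan-macrophage genes to rise (0.60 ± 0.10). Of other Kupffer cell genes Id3 (0.86 ± 0.11) and Fcna (0.23 ± 0.06) rose and Hpgd (-0.48 ± 0.08) and C6 (-0.31 ± 0.08) fell, while 9 of 13 were not called. With Wy 28.3% of all genes tested were called, so some calls in lists of this size are common. In iron handling, to which Cd163 belongs, Hmox1 (0.40 ± 0.12) and the transferrin receptor Tfrc (0.43 ± 0.15) rose and Blvra (-0.22 ± 0.06) and Cp (-0.14 ± 0.04) fell, while 6 of 10 were not called. Of 8 monocyte-derived genes 0 were called (-0.38 to 0.16).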

How the data were processed

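Total RNA of whole liver was hybridised to Affymetrix Mouse Gene 1.1 ST arrays, 1 per mouse. The deposited values are log2 intensities that the authors made with robust multi-array averaging (RMA, version not given in the sources used here), which equalises the arrays' distributions, so that array medians over all clusters lay between 5.53 and 5.59 and global shifts in RNA amount are removed. Correlations between arrays ran from 0.982 to 0.994 over all transcript clusters. Precision is set by how few arrays there are. Of 35556 transcript clusters 21218 matched 1 gene, and the cluster with the highest mean stood for a gene. Genes with an intensity over 20 on at least 5 arrays were tested, as in the study's filter.

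Comparisons used limma 3.58.1 in R 4.3.3, with Benjamini-Hochberg adjustment over 14275 genes and a threshold of 0.05. Diets were fitted with treatment and weight class as terms, body weight within diets by means of diet by class with treatment, and Wy with the pair as a block. The labels state the pairing by weight. Deviations of paired livers correlated at 0.531 in C, 0.564 in MF, 0.0839 in INT and -0.169 in CR. Standard errors (±, SE) are of the fit, and mean ± SD is named as such. Of the arrays, 14 carry 1 plate code in the labels and 2 another (high INT mock and high INT Wy).

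The 10 genes and the other gene lists were chosen with earlier results of these data known. All 10 were fitted in every comparison and are given by value or range. From other lists the called members and up to 4 with the smallest p may be named, and likeness takes the 6 genes (3 for Clec4f) with the highest r. Alternatives were centring, no filter, the mean of all clusters of a gene, a trended robust fit, the pairing, the first plate, 1 treatment alone, and leaving out each array. Comparisons within 1 class or 1 diet, their left-out arrays, and crossed CR pairs, were chosen after seeing the data. The fits were tested on simulated data.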

Additional observations from a re-analysis of the deposited data

Results flagged for a closer look

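Dixon's ratio, the gap of the farthest liver to its neighbour over the range of the group, was taken for each of the 10 genes in 4 diet groups, 2 treatment groups and 4 groups of weight class by diets, 100 groups in all. It passed the 95% value in 11 of them, where chance flags about 1 in 20, and the groups share livers. High CR mock was the low liver of the CR group for C1qc (8.55, next 9.46, ratio 0.93), C1qb (9.51, next 10.10, 0.885), Timd4 (6.91, next 7.39, 0.856) and Adgre1 (7.41, next 8.18, 0.835), and for C1qb also among the heavy CR and INT livers (0.938). Low INT Wy was the high liver of the INT group for Adgre1 (8.69, next 7.92, 0.916), Timd4 (8.00, next 7.12, 0.868) and Marco (7.47, next 5.68, 0.865), and for Marco also among the Wy livers (next 6.00, 0.69). High MF mock stood above the MF livers for Adgre1 (8.34, next 7.84, 0.93), and high C Wy above the Wy livers for C1qa (9.35, next 9.04, 0.534). No difference between groups in an effect of diet, weight or Wy passed the threshold for any of the 10 genes.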

How the results depend on the processing

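With 2 mice per diet and treatment, a call here rests on few livers. C1qb and Timd4 in high minus low of C and MF and Cd163 with Wy kept their direction in all alternatives run, left-out arrays included. The count of markers called in high minus low of C and MF (2) was 1 without the filter and 1 within the first plate, where Timd4 missed (adjusted p = 0.0502 and 0.0537), and centring added C1qc (adjusted p = 0.049). It was 0 in C alone and 0 in MF alone, with fewer livers, where Clec4f was -0.29 in MF. In CR minus C it was 2 in heavy livers, with Clec4f at -0.28, and in CR minus MF 1. In light livers CR minus C was 0.15 for C1qb, 0.27 for C1qa, 0.33 for C1qc, 0.32 for Vsig4, 0.19 for Cd5l, 0.24 for Adgre1 and -0.027 for Timd4, each opposite in sign to the value over both classes. The cause was not tested. Of 494 values of single markers and counts recomputed outside left-out arrays, 470 kept their side and direction (94 counts and 376 marker values). A marker uncalled in both fits with the same sign, or a count that stayed 0, was counted as kept. As most markers were uncalled from the start, this total says little about the calls.

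With each array left out in turn, the number of markers called ran from 0 to 4 in high minus low of C and MF, from 0 to 4 in its difference from CR and INT from 0 to 1 with Wy, and within heavy mice from 0 to 4 in CR minus C and from 0 to 3 in CR minus MF, and stayed 0 in the other comparisons. Estimates near 0 changed sign: in CR minus C those of Clec4f (-0.068 to 0.16), Vsig4 (-0.38 to 0.034), C1qa (-0.26 to 0.035) and C1qc (-0.44 to 0.013), in high minus low those of Clec4f in C and MF (-0.077 to 0.14), Cd163 in CR and INT (-0.44 to 0.0060) and Marco in the difference (-0.46 to 0.56), and with Wy those of C1qa (-0.014 to 0.14) and C1qb (-0.0069 to 0.16). The pairing as a random block in the diet contrasts, or left out with Wy, changed no call (Cd163 adjusted p = 0.0317 without the block). With the CR pairs crossed, Cd163 was again the 1 marker called. The random block was not run for body weight within diets, where the pair is already a term, and the first plate gives no value for CR and INT or for the difference, as both heavy INT livers are on the second plate.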
